A study of Mus musculus with 48 samples.

Results

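The comparison of mouse embryonic fibroblasts (MEFs) lacking HMGN1 and HMGN2 with wild type MEFs before differentiation rests on 6 of the 48 RNA-seq libraries of the series. MEFs are primary fibroblast-like cells grown from minced embryos, here taken at passage 3 or earlier and kept as mixed cultures rather than clones. The 3 WT libraries come from wild type C57BL/6 embryos, and the 3 DKO libraries from embryos carrying Hmgn1-/- and Hmgn2-/-, both inherited through the germ line. The labels give C57BL/6 for both genotypes, whereas the study names the DKO mice as a B6.Cg line, which is congenic. Effects of the deletions and of any remaining DNA from another strain cannot be told apart here. Day 0 was reached once the cells had stayed confluent for a short time, before any insulin, dexamethasone, IBMX, T3 or rosiglitazone was added. All genes that passed a filter on low counts were taken, which left 15671 of the 55450 genes in the table. The labels do not say whether the 3 cultures of a genotype came from different embryos, so p-values measure the spread between these libraries only.

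HMGN proteins are small, abundant nucleosome-binding proteins of vertebrate nuclei. They bind the nucleosome core without preference for DNA sequence, compete with linker histone H1 and are found at enhancers and promoters. HMGN1 and HMGN2 are the common members of the family, and HMGN3 and HMGN5 have narrower expression. The comparison asks how MEFs without the common pair differ before the adipogenic medium is added.

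Summed counts lay between 24072644 and 28174904 in the WT libraries (median 25750006) and between 23200530 and 33083194 in the DKO libraries (median 28393137). The DKO libraries did not resemble each other. DKO replicate 2 stood farthest from the WT mean, with 25.5% of the tested genes at least 1.5-fold away, followed by DKO replicate 3 with 14.3% and DKO replicate 1 with 5.70%, while the WT libraries reached 2.07% to 5.42% against the mean of the other two. WT replicates 1 and 3 were much closer to each other (chi-square per degree of freedom 3.33) than either was to replicate 2 (19.5 and 17.9). They still differed by more than sampling noise and were counted as separate libraries. That difference does not decide whether they came from the same culture, which the labels do not say. For the main gene lists, counts or medians without single libraries are given below.

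**Figure D1:**
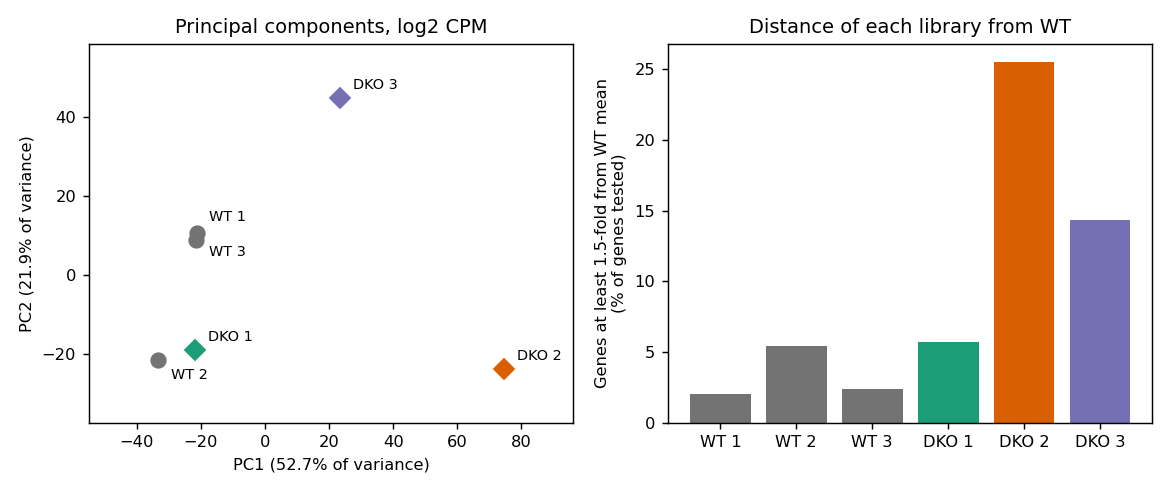
Left, the 6 day 0 MEF libraries on the first 2 principal components of log2 CPM (52.7% and 21.9% of the variance). Right, the percentage of tested genes in each library at least 1.5-fold from the WT mean (for a WT library, the mean of the other WT libraries). DKO replicate 1 has a first-component score of -21.9, in the range of the WT libraries, and DKO replicate 2 scores 74.6.

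Of the targeted pair, Hmgn2 (ENSMUSG00000003038.15, chromosome 4, 133964738 to 133968650, mm10, minus strand) was measured at 60.9, 72.8 and 59.4 CPM in the WT libraries and at 0 in all 3 DKO libraries. This is at least 593-fold lower in DKO cells, taking 3 counts per DKO library as the limit that a count of 0 allows (adjusted p = 0.00107 by edgeR's quasi-likelihood test, as for every adjusted p below unless another tool is named). Hmgn1 was measured at 144, 147 and 143 CPM in WT and at 102, 71.1 and 109 CPM in DKO libraries. Reads assigned to Hmgn1 therefore remained in every DKO library, although each DKO value lay below each WT value. The log2 fold change was -0.62 with a standard error of 0.16 and did not pass the correction (adjusted p = 0.434). With 1 fit over all MEF days it was called at the same fold change, and in separate fits it had an adjusted p of 0.0390 at day 4 and 0.000459 at day 12. Counts per gene do not show which exons these reads cover. The study's methods state that RNA of the deleted exons is absent, and that western blots find neither HMGN1 nor HMGN2 protein in DKO cells.

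The other members of the family were not called. Hmgn3 stood at 19.99, 20.3 and 17.7 CPM in WT and at 26.5, 81.2 and 33.4 CPM in DKO libraries (log2 fold change 1.28 ± 0.42 SE, adjusted p = 0.524). DKO replicate 2 was the highest, and without that library the fold change was 0.64. Hmgn5 overlapped between the genotypes, with 9.61 to 13.2 CPM in WT and 7.99 to 14.1 CPM in DKO libraries.

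Across all genes, 16 (0.102%) were called, which took both an adjusted p under 0.05 and a difference of 1.5-fold or more, 6 of them higher (0.0383%) and 10 lower (0.0638%) in DKO MEFs. At an unadjusted p under 0.05 there were 1454 genes (9.28%), and the libraries of the genotypes did not overlap for 2897 genes (18.5%). The count moved with the libraries and the tool, to 166 with DESeq2 (1.06%) and to 529 without DKO replicate 1 (3.28%). All 16 calls were among both of these sets. It fell to 5 without any 1 of the WT libraries and to 7 without DKO replicate 3. Besides Hmgn2, the called genes were 8 processed pseudogenes, 4 other protein coding genes, 2 transcripts annotated as antisense and 1 unassigned transcript. Processed pseudogenes made up 4.60% of the genes tested, and 1.11% of the 721 tested were called, against 0.0367% of 13632 protein coding genes.

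A processed pseudogene is a copy of a messenger RNA that was written back into the genome, so its reads can be hard to tell from those of its source gene. Where a read fits more than 1 gene, RSEM splits it by estimate, so levels of near-identical copies are uncertain. Of the 16 called genes, 14 have a transcript that matches a transcript of another gene over at least 50% of its length, at 89.2% to 99.8% identity. Kndc1 and Gm45104 have no such match. The match of D3Ertd751e, Gm9529, was at 0 in all 6 libraries, and Gm43079 overlaps its match Acad9. This search was not run for the other tested genes, so no share over all genes is given.

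The smallest p-values belong to copies of Rplp0, which encodes the ribosomal stalk protein P0. Below are 60 bases of the coding sequence of Rplp0 (bases 388 to 447, GENCODE M21) and the same stretch of the called pseudogenes Gm8730 and Gm9625, shown because so few bases separate them; capitals mark positions where any of these differ.
Rplp0: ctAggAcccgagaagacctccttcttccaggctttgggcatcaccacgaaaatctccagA
Gm8730: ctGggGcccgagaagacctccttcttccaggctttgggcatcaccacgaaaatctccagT
Gm9625: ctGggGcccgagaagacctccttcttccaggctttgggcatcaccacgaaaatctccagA
Over all 954 coding bases Gm8730 differs from Rplp0 at 12 positions and Gm9625 at 24. Gm8730 (chromosome 8, 102864845 to 102865798, mm10) was measured at 378, 383 and 399 CPM in WT and at 9.14, 8.36 and 8.05 CPM in DKO libraries, a log2 fold change of -5.50 ± 0.10 SE (adjusted p = 8.16e-06, edgeR). Gm9625 (chromosome 13, 67810246 to 67811200) went from 82.0, 84.4 and 87.2 CPM to 6.37, 6.53 and 6.52 CPM (log2 fold change -3.71 ± 0.08 SE, adjusted p = 1.16e-05). A copy on chromosome 2, Gm14165, was lower as well (8.57, 9.92 and 8.62 CPM in WT, 2.04, 2.59 and 2.18 CPM in DKO, adjusted p = 0.0208). Within each genotype these values were tight, also in DKO replicate 2. Rplp0 itself stood at 789, 781 and 835 CPM in WT and at 1322, 1271 and 1137 CPM in DKO libraries (log2 fold change 0.63 ± 0.11 SE, adjusted p = 0.162). The sum of Rplp0 and the 3 called copies was 1257, 1258 and 1330 CPM in WT and 1339, 1289 and 1154 CPM in DKO libraries, so the genotypes overlapped in the sum and differed in how it was divided.

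Gm3375 is a copy of Psmb5, a catalytic subunit of the proteasome, with 8 differences over its 795 coding bases. Bases 263 to 322 of that coding sequence are shown, with the differing positions in capitals.
Psmb5: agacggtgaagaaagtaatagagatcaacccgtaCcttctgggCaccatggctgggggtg
Gm3375: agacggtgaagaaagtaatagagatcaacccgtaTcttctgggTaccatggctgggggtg
Gm3375 (chromosome 7, 3181093 to 3181888) was near absent in WT at 0.785, 0.692 and 0.715 CPM and stood at 22.7, 21.7 and 19.02 CPM in DKO libraries (log2 fold change 4.84 ± 0.15 SE, adjusted p = 0.000102). Psmb5 showed the opposite sign, with 60.6, 59.5 and 65.0 CPM in WT and 48.2, 53.2 and 41.2 CPM in DKO libraries (log2 fold change -0.38 ± 0.11 SE, adjusted p = 0.519). The sum of the pair overlapped between the genotypes, at 60.2 to 65.7 CPM in WT and 60.2 to 75.0 CPM in DKO libraries.

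The copy Rbpj-ps3 of Rbpj, the DNA-binding effector of Notch signalling, differs at 4 of 1441 aligned coding bases. It was measured at 33.2, 32.0 and 34.8 CPM in WT and at 15.6, 18.0 and 17.7 CPM in DKO libraries (log2 fold change -0.96 ± 0.10 SE, adjusted p = 0.0389). Rbpj had the opposite sign (116, 108 and 108 CPM in WT, 152, 175 and 161 CPM in DKO, log2 fold change 0.55 ± 0.09 SE, adjusted p = 0.138). Unlike for Rplp0, the sum of Rbpj and its copy did not overlap, at 140 to 149 CPM in WT and 168 to 193 CPM in DKO libraries. Copies of Hmgb1, a chromatin protein of the HMGB family, gave 2 calls: Gm21596 fell from 10.8, 10.5 and 11.4 CPM to 0.170, 0.276 and 0.655 CPM (adjusted p = 0.0208), and Gm45315, at 4.04 to 5.43 CPM in WT, was at 0 in all DKO libraries (at least 41.6-fold lower, adjusted p = 0.0248). Hmgb1 overlapped between the genotypes (188 to 212 CPM in WT, 190 to 274 CPM in DKO). A copy of Osgep, an enzyme of transfer RNA modification, was higher: AC115117.1 rose from at most 1 count per WT library to 4.12, 1.83 and 3.40 CPM in DKO libraries (at least 26.9-fold, adjusted p = 0.0184).

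Gm10282, annotated as protein coding, matches Hmgn2 at 99.3% identity over all 1151 bases of its transcript. It was measured at 3.68, 4.54 and 3.03 CPM in WT libraries and at 0, 0.0345 and 0 CPM in DKO libraries (at least 34.5-fold lower, adjusted p = 0.0145). A loss of Hmgn2 reads and a loss of transcript from this copy cannot be told apart in these counts. Gm21188, another gene annotated as protein coding, went from 4.12 to 4.38 CPM in WT to at most 0.0345 CPM in DKO libraries (at least 38.9-fold lower, adjusted p = 0.00842). The most abundant of its matches, Gm36161, lies within 1 Mb of it. Gm36161 was measured at 2.34 to 3.11 CPM in WT and 0 to 0.207 CPM in DKO libraries (adjusted p = 0.103). Gm26782, an antisense transcript over Tep1 (a telomerase-associated protein), fell from 10.8, 11.6 and 11.7 CPM to 1.83, 2.07 and 1.28 CPM (adjusted p = 0.0145), while Tep1 stood at 92.5 to 96.0 CPM in WT and 71.3 to 90.8 CPM in DKO libraries (adjusted p = 0.536). The kit marks strand per the study's methods, but the strand setting of the counting is not given in the sources used here, so reads from overlapping genes may be shared.

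**Figure D2:**
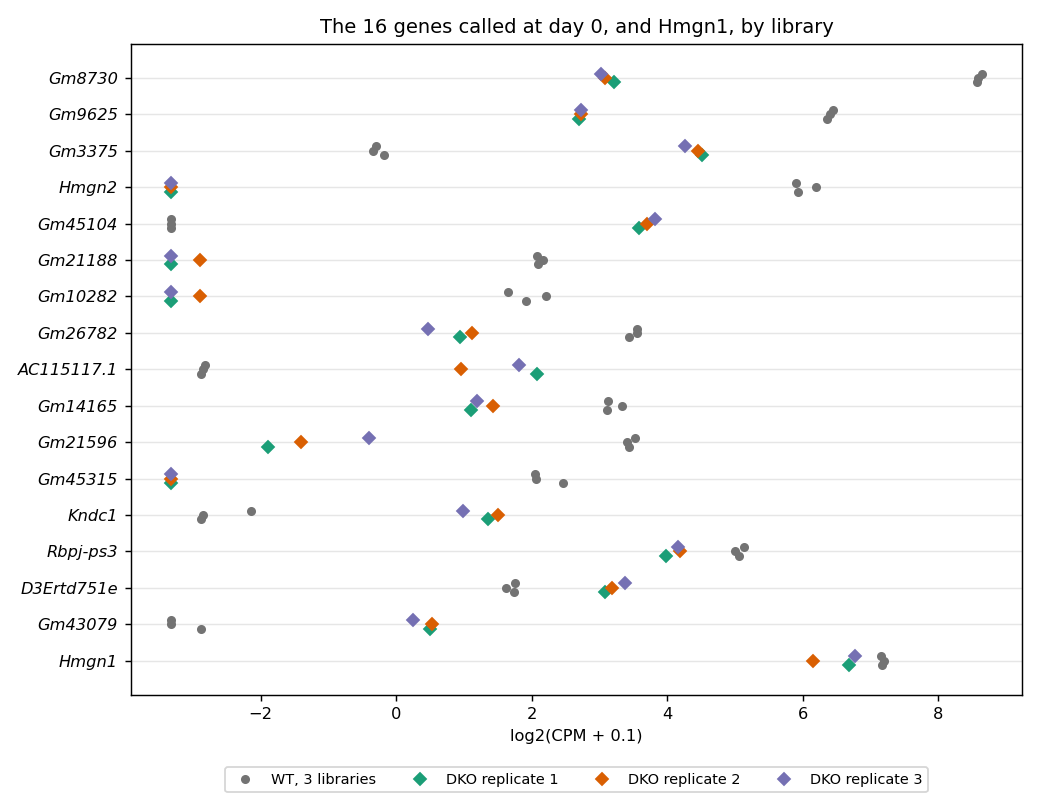
Levels of the 16 called genes (ordered by p-value) and of Hmgn1 in each library, as log2(CPM + 0.1); circles are the 3 WT libraries and diamonds the DKO libraries, coloured by replicate. The DKO libraries lie together on one side of WT for every called gene, whereas Hmgn1 ranges from 71.1 to 109 CPM among them.

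The remaining calls were higher in DKO cells. Gm45104, an unassigned transcript on chromosome 7 (18396516 to 18400865), was at 0 in the WT libraries and at 11.9, 12.9 and 13.9 CPM in the DKO libraries (at least 111-fold higher, adjusted p = 0.00589). Kndc1, which encodes a brain-enriched exchange factor for Ras, was measured at 0.0357 to 0.126 CPM in WT and at 2.46, 2.73 and 1.87 CPM in DKO libraries (at least 20.3-fold higher, adjusted p = 0.0248). D3Ertd751e rose from 3.25, 2.96 and 3.28 CPM to 8.33, 9.02 and 10.2 CPM (log2 fold change 1.54 ± 0.16 SE, adjusted p = 0.0389). Gm43079 is annotated as antisense but overlaps Acad9 on the same strand, so strand cannot separate their reads. Its transcript matches Acad9 at 99.8% identity. Gm43079 went from at most 1 count in WT to 1.09 to 1.35 CPM in DKO libraries (at least 10.8-fold higher, adjusted p = 0.0389). Acad9, an assembly factor of respiratory complex I, did not follow it (36.3 to 39.1 CPM in WT, 35.99 to 45.0 CPM in DKO).

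Genes within 1 Mb were counted around all 16 called genes, and Kndc1 and Gm43079 were chosen for description after these counts were seen. Of 24 genes tested within 1 Mb of Kndc1, the libraries did not overlap for 7, all higher in DKO cells, against 8.55% of all genes. These include Echs1, an enoyl-CoA hydratase of mitochondrial fatty acid oxidation, at 45.4, 48.8 and 48.7 CPM in WT and 75.1, 70.5 and 79.9 CPM in DKO libraries (log2 fold change 0.66 ± 0.08 SE, adjusted p = 0.0753). Of 15 genes tested within 1 Mb of Gm43079, 9 did not overlap and were higher, among them Mccc1, a subunit of methylcrotonyl-CoA carboxylase (16.8 to 19.2 CPM in WT, 24.4 to 31.0 CPM in DKO, adjusted p = 0.231). Echs1 and Mccc1 were chosen after their values were seen. Other loci differed: 6 of 13 genes lay apart around Gm26782, all lower, 8 higher and 1 lower of 36 around Gm9625, 5 higher and 10 lower of 46 around Gm10282, and none of 2 around Gm8730 or of 7 around Gm21596. Around the targeted genes, none of 50 genes tested within 5 Mb of Hmgn1 and none of 158 within 5 Mb of Hmgn2 was called by edgeR. At an unadjusted p under 0.05 there were 2 higher and 4 lower around Hmgn1 and 3 higher and 11 lower around Hmgn2 (4.43% of all genes were higher and 4.84% lower), and DESeq2 called 1 gene as lower around each. Libraries did not overlap, on the lower side, for 10 genes around Hmgn1 (20%) and 24 around Hmgn2 (15.2%), against 9.94% of all genes. On the higher side there were 4 (8.0%) and 5 (3.16%), against 8.55%, and 18.5% of all genes did not overlap on either side. The median log2 fold changes were -0.019 around Hmgn1 and -0.021 around Hmgn2, against 0.012 over all genes. The neighbour of Hmgn2 with the smallest p was Dhdds, a subunit of the enzyme that makes dolichol, at 46.0, 45.1 and 47.1 CPM in WT and 29.1, 31.1 and 29.3 CPM in DKO libraries (adjusted p = 0.0753).

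Libraries taken later and in the other cell type give the called genes a second reading. At MEF day 4, 15 of the 16 were tested, all with the sign of day 0, and 9 of them were called among the 14 genes called there (0.0905% of genes tested). At day 8 all 15 tested again kept their sign, with 7 called of 9 in all (0.0595%). At day 12, 14 of 16 were called among 1222 (7.98%). In preadipocytes of inguinal white fat at day 0, 14 were tested, 12 had the same sign and 9 were called among 33 (0.218%). Gm8730, Gm9625, Gm3375, Hmgn2, Gm45104 and Gm10282 were called in each of these comparisons. The 2 with the opposite sign there were D3Ertd751e, with a log2 fold change of -0.33, and Gm43079, with -0.10. For D3Ertd751e and Gm43079 the difference between the cell types was itself past the threshold in edgeR's test of genotype by cell type (adjusted p = 0.00412 and 0.00371), in which 0.0844% of genes passed and 7.44% had an unadjusted p under 0.05. That test cannot separate cell type from sex, because all 6 MEF libraries had 1357 to 1662 CPM of Xist, the RNA of the inactive X chromosome, and 0 for all 4 Y-linked genes examined, whereas Ddx3y stood at 118 to 136 CPM in the 6 preadipocyte libraries.

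**Figure D3:**
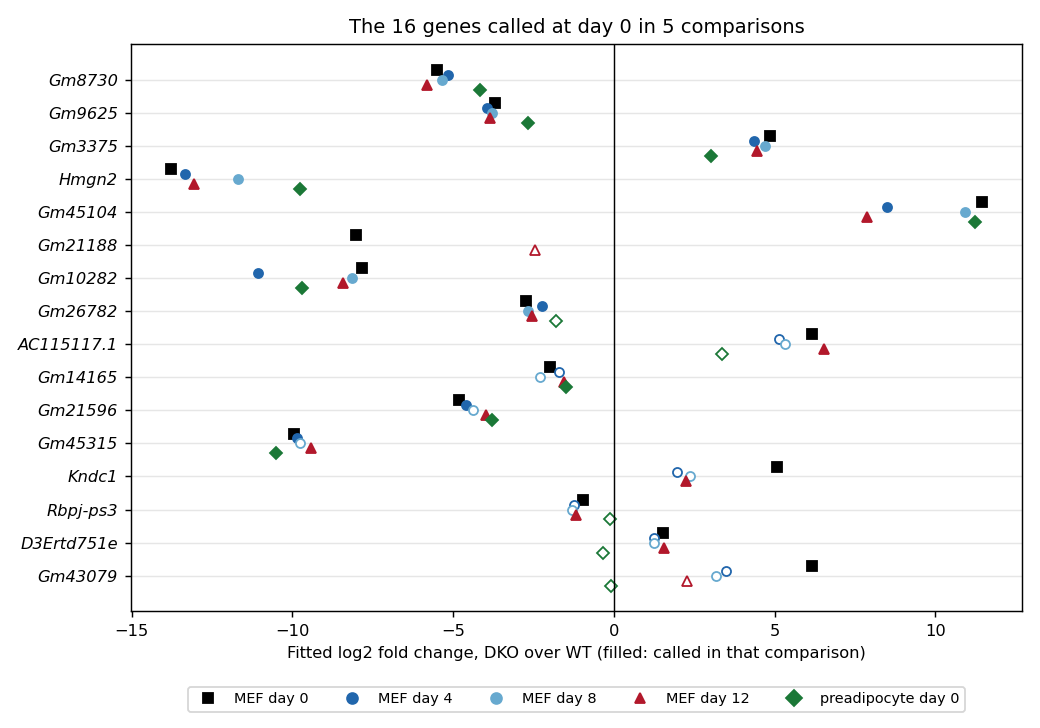
Fitted log2 fold changes (DKO over WT) of the 16 genes in 5 comparisons of 3 against 3 libraries; filled symbols were called in that comparison and open ones were not. The values keep their sign at every MEF day where they were tested. Fitted values of genes at or near 0 in one genotype, such as Hmgn2, Gm45104, Gm45315, Gm10282 and Gm21188, depend on the fit's prior count and are no bounds.

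Of the 47 gene lists examined, the interferon-stimulated genes had the largest share of members whose libraries did not overlap. Type I interferon signals through a complex of transcription factors that includes STAT2 and IRF9 and binds an element in the promoters of antiviral genes, and cultured fibroblasts keep a low tonic output of these genes without infection. All 32 genes of the list were tested and 0 were called by edgeR. DKO and WT libraries did not overlap for 27 of them, all lower in DKO (84.4%, against 9.94% of all genes tested), and the same number had an unadjusted p under 0.05 with a negative sign (4.84% of all genes). The median log2 fold change of the list was -0.96, against 0.01 over all genes. Values of single members other than the list's most abundant genes were chosen for display after they were seen.

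The element bound by this complex can be written GAAANNGAAA. It was searched on both strands in the 250 bases upstream of each start site in RefSeq's promoter table (GRCm38.p6), counting overlapping matches. It was present in 12 of the 23 listed genes with a promoter there (52.2%), and in 364 of 11114 tested genes with one (3.28%). Stretches of 80 bases from the 4 matching genes with the smallest p-values are shown 5′ to 3′ on the strand of the gene, with matches in capitals (TTTCNNTTTC is the motif on the other strand).
Oas1a, chr5:120907526-120907605, minus strand: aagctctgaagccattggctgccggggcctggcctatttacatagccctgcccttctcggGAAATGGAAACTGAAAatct
Rsad2, chr12:26456528-26456607, minus strand: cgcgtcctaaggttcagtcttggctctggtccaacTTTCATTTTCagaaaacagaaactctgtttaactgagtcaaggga
Ifit1, chr19:34640750-34640829, plus strand: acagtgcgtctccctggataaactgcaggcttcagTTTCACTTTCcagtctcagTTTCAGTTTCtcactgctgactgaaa
Oas3, chr5:120777690-120777769, minus strand: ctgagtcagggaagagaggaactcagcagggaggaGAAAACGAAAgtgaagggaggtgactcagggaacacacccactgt
The share with a match was 10 of 19 among the listed genes with a negative sign at an unadjusted p under 0.05, and 2 of 4 among the others. A match describes the letters only and says nothing of binding in these cells.

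Among the factors that carry the signal, Stat2 stood at 110, 98.2 and 112 CPM in WT and at 80.2, 58.9 and 67.8 CPM in DKO libraries (log2 fold change -0.63 ± 0.13 SE, adjusted p = 0.290). For Irf9 the log2 fold change was -0.53 ± 0.08 SE (adjusted p = 0.147). Irf7, the factor that amplifies the response, stood at 25.4, 19.5 and 28.2 CPM in WT and at 11.3, 8.71 and 8.61 CPM in DKO libraries (log2 fold change -1.35 ± 0.18 SE, adjusted p = 0.0914). For each of these 3 genes every DKO library lay below every WT library, DKO replicate 1 included.

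The effectors act on viral RNA and proteins. Oas1a, which senses double-stranded RNA, was measured at 31.0, 24.2 and 30.0 CPM in WT and at 14.6, 10.5 and 11.7 CPM in DKO libraries (log2 fold change -1.21 ± 0.16 SE, adjusted p = 0.0897). Rsad2, which encodes viperin, stood at 9.28, 6.96 and 9.71 CPM against 3.36, 2.18 and 2.31 CPM (log2 fold change -1.73 ± 0.24 SE, adjusted p = 0.101). Ifit1, which binds foreign RNA ends, stood at 42.1, 28.6 and 35.5 CPM against 16.9, 12.99 and 11.3 CPM (log2 fold change -1.37 ± 0.20 SE, adjusted p = 0.126). Isg15, a ubiquitin-like modifier, spread more among the DKO libraries, at 20.2, 7.88 and 9.29 CPM against 33.7 to 40.0 CPM in WT (log2 fold change -1.55 ± 0.36 SE). Not all members lay apart: Ifit2, Ifit3, Ifit3b, Ifi27 and Ifi35 overlapped between the genotypes, and Ifit2 had a log2 fold change of 0.10. Oas and Ifit genes are close paralogs that can share reads.

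**Figure D4:**
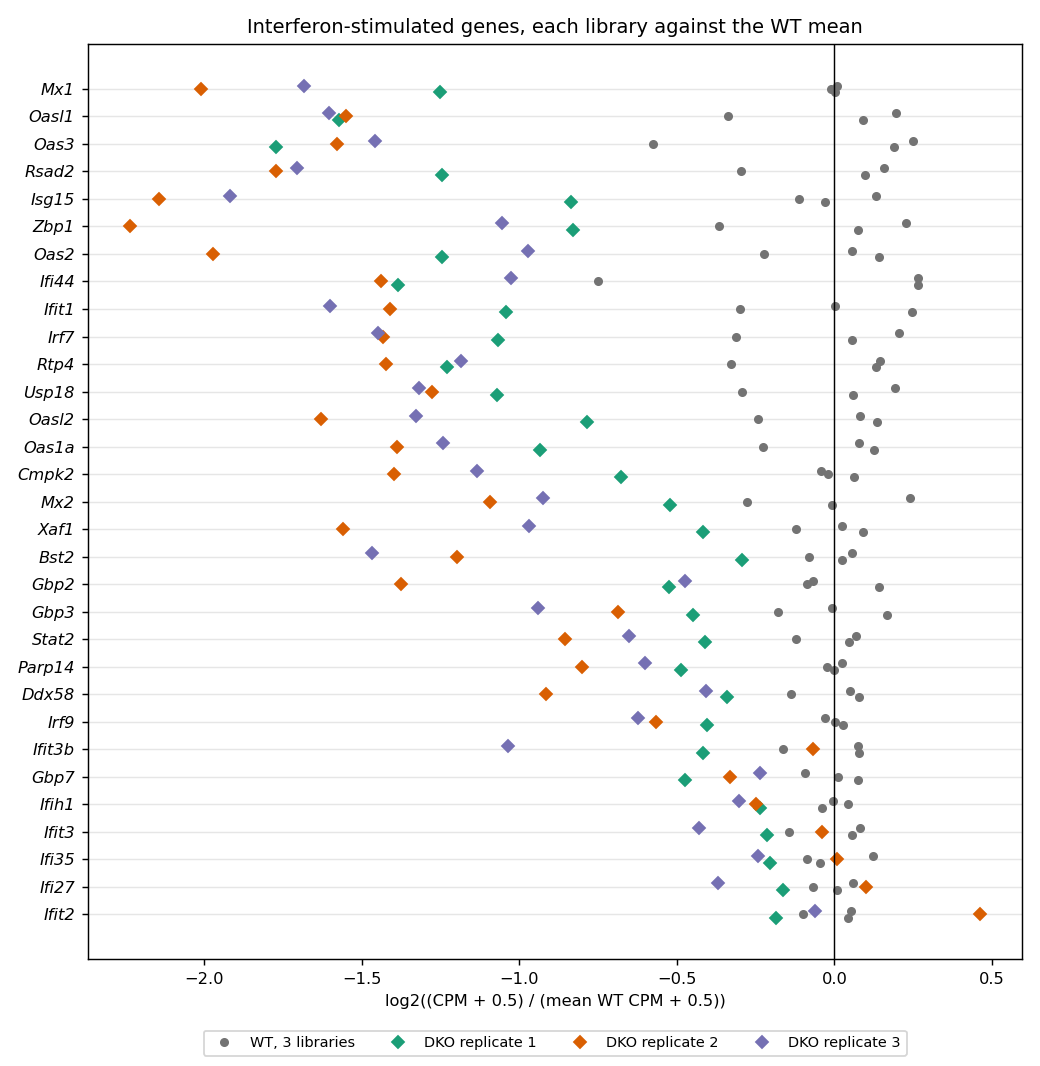
The plot shows 31 of the 32 interferon-stimulated genes in each library, as log2 of (CPM + 0.5) over the WT mean plus 0.5, ordered by fitted fold change; circles are WT and diamonds DKO. DKO values lie below all WT values for 26 of them and overlap them for Ifit3b, Ifit3, Ifi35, Ifi27 and Ifit2.

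The count held when libraries were left out, a set of refits chosen after the data were seen. Between 23 and 29 of the 32 genes kept a negative sign at an unadjusted p under 0.05 when any 1 of the 6 libraries was omitted, with medians from -1.30 to -0.80. Calls depended on the tool and on the libraries: DESeq2 called 18 of the 32 as lower (0.619% of all genes), and without DKO replicate 1 edgeR called 17 (2.21% of all genes). In the other comparisons the median of the list was -0.23 at MEF day 4, -0.33 at day 8 and 0.04 at day 12, each with no member called by edgeR. In preadipocytes at day 0, which share no library with the MEFs, it was -0.87, and all 31 members tested had a negative sign (49.2% of all genes did). No member was called there by edgeR either. Ifit1 there was measured at 17.3, 50.2 and 44.1 CPM in WT and at 14.3, 13.4 and 13.02 CPM in DKO libraries (adjusted p = 0.423). Oas1a lay apart there as well, whereas Isg15, Irf7 and Rsad2 overlapped between the genotypes. Isg15 stood at 27.5, 83.8 and 38.1 CPM in WT and at 31.3, 12.3 and 12.5 CPM in DKO preadipocytes. No gene passed edgeR's test of genotype by day between MEF days 0 and 4 (0 of 16436 genes, with 1185, or 7.21%, at an unadjusted p under 0.05, 8 called by DESeq2 and 228 by edgeR without DKO replicate 1).

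The MHC class I genes, which present peptides to T cells and respond to interferon, had a median log2 fold change of -0.47 over 17 tested members, with 0 called by edgeR and 2 by DESeq2. For 9 of them the libraries did not overlap, all lower in DKO (52.9%, against 9.94% of all genes), and 9 had an unadjusted p under 0.05 and a negative sign (4.84% of all genes). That count was 7 to 15 with a library omitted, 15 without DKO replicate 2, and the share of all genes was then 2.36% to 12.7%. B2m, the invariant light chain, stood at 860, 765 and 812 CPM in WT and at 575, 577 and 613 CPM in DKO libraries (log2 fold change -0.47 ± 0.10 SE, adjusted p = 0.301). H2-K1, a classical heavy chain, had a log2 fold change of -0.47 ± 0.08 SE (adjusted p = 0.162). H2-D1 overlapped between the genotypes, at 479 to 548 CPM in WT and 325 to 524 CPM in DKO libraries. Reads of the heavy chain genes are uncertain, since these genes resemble each other.

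Macrophages accompany fibroblasts in embryo cultures, and their markers lay lower in DKO libraries as well. The 20 listed markers summed to 9864 to 12140 CPM in WT and 7669 to 9272 CPM in DKO libraries. Of 19 tested, 0 were called by edgeR or DESeq2, 13 did not overlap and were lower (68.4%, against 9.94% of all genes), and the median was -0.63, or -0.33 without DKO replicate 2. At an unadjusted p under 0.05 and a negative sign there were 5 (4.84% of all genes), 2 without WT replicate 2 (2.39%) and 9 without DKO replicate 2 (5.2%). Of the list, Cd74, the MHC class II invariant chain, reached at most 0.577 CPM in any library. Csf1r, the receptor that macrophages need to survive, was measured at 441, 529 and 470 CPM in WT and at 399, 188 and 388 CPM in DKO libraries (adjusted p = 0.547). Lyz2, a lysozyme and the most abundant of the list, overlapped (5099 to 7014 CPM in WT, 4709 to 5787 CPM in DKO). The interferon list summed to 896, 783 and 745 CPM in DKO replicates 1 to 3, and the macrophage list to 8755, 7669 and 9272 CPM. Much of the macrophage sum was Lyz2, so this sum is not a count of macrophages. The part of macrophage number in the interferon result was not tested, and in bulk RNA fewer cells of a type and less RNA per cell cannot be told apart.

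Genes of the cell cycle had a median log2 fold change of -0.67 over 34 tested members, with 0 called by edgeR and 1, Pttg1, by DESeq2. Without DKO replicate 1, edgeR called 21 as lower (2.21% of all genes). The DKO libraries differed in degree, with a summed level of 1367, 814 and 1102 CPM for replicates 1 to 3 against 1556 to 1579 CPM in WT. Mki67, the proliferation antigen Ki-67, was measured at 155, 178 and 149 CPM in WT and at 137, 34.7 and 74.8 CPM in DKO libraries (log2 fold change -0.97 ± 0.45 SE, adjusted p = 0.536). Pcna, the clamp of DNA replication, stood at 105 to 107 CPM in WT and at 91.0, 51.0 and 71.3 CPM in DKO libraries (adjusted p = 0.527). Libraries did not overlap for 19 members on the lower side (9.94% of all genes), and 15 had an unadjusted p under 0.05 with a negative sign (4.84% of all genes). This count was 28 without DKO replicate 1 (12.7% of all genes), 7 without DKO replicate 2 (5.2%) and 3 without DKO replicate 3 (4.19%). Omitting WT replicate 1 left 4 members (2.41% of all genes), omitting WT replicate 2 left 1 (2.39%) and omitting WT replicate 3 left 2 (2.36%), so the lowest was close to its background. Pttg1, the separase inhibitor securin, lay on the other side, at 7.21, 8.69 and 6.48 CPM in WT and 13.04, 21.6 and 17.2 CPM in DKO libraries (log2 fold change 1.21 ± 0.22 SE, adjusted p = 0.203).

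Several programmes separated DKO replicate 2, and in part replicate 3, from the other 4 libraries. Col1a1, the main chain of fibrillar collagen, stood at 8258 to 9493 CPM in WT and at 9614, 2642 and 3747 CPM in DKO libraries. Collagens did not all move this way: of 36 tested, 17 had a positive and 19 a negative log2 fold change. Col12a1 stood at 2946 to 4071 CPM in WT and at 3278, 7117 and 7595 CPM in DKO libraries. Gclc, the rate-limiting enzyme of glutathione synthesis, stood at 22.7 to 24.6 CPM in WT and at 26.4, 165 and 42.7 CPM in DKO libraries, and Mdm2, a p53 target that restrains p53, at 95.04 to 110 CPM against 88.1, 328 and 101 CPM. The mitochondrially encoded genes summed to 15850 to 18100 CPM in WT and to 14730, 27810 and 18220 CPM in DKO libraries. No member of the collagen, glutathione, p53 and mitochondrial lists was called by edgeR, and DESeq2 called 2, both of the glutathione list. At an unadjusted p under 0.05 and a positive sign there were 8 of 36 glutathione genes (4.43% of all genes), and 19 without DKO replicate 1 (11.8%) and 5 without DKO replicate 2 (4.28%). The median of the collagen list was -0.05, or -0.31 without DKO replicate 1 and 0.07 without DKO replicate 2. The median of the glutathione list was 0.32 with all libraries and 0.07 without DKO replicate 2, and that of the p53 list turned from 0.13 to -0.20 without it.

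**Figure D5:**
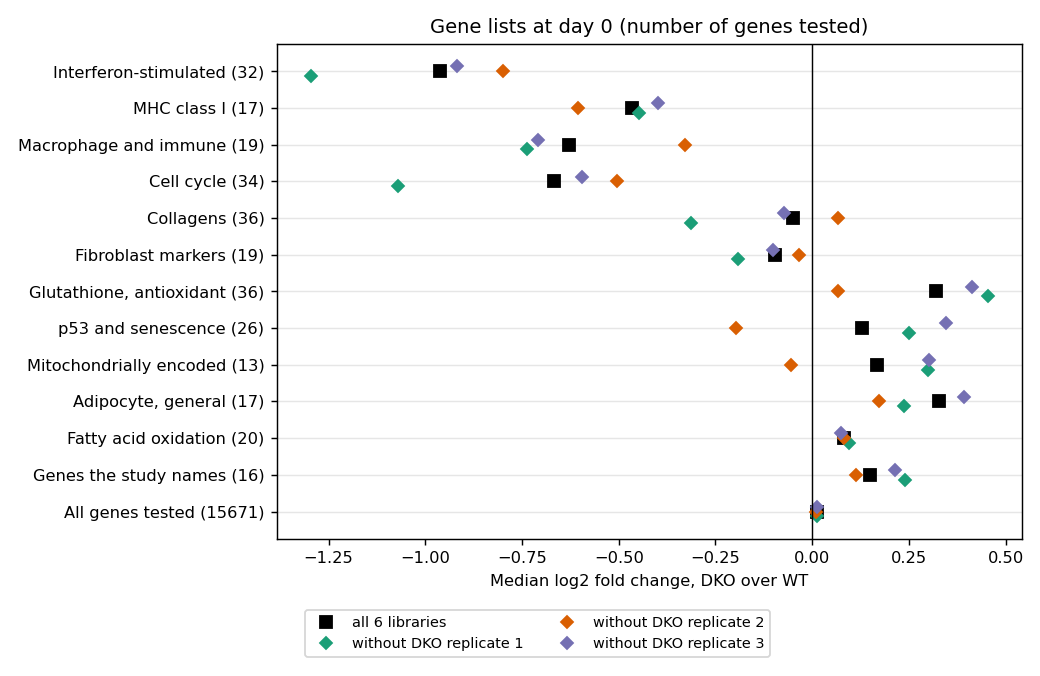
Median log2 fold change (DKO over WT) of 12 gene lists and of all genes tested, with all 6 libraries (squares) and without each DKO library (diamonds); the number of genes tested is in brackets. The interferon list stays between -1.30 and -0.80, and the glutathione and p53 lists move toward or below 0 without DKO replicate 2.

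Larger sets of housekeeping genes had small medians, with most ribosomal and respiratory genes on the lower side. The cytosolic ribosomal proteins had a median of -0.09 over 81 tested genes, 67 of them (82.7%) with a negative sign, against 47.9% of all genes. Nuclear genes of oxidative phosphorylation had -0.07 over 80, with 56 (70.0%) negative. Libraries did not overlap on the lower side for 16 ribosomal genes (19.8%) and 15 of oxidative phosphorylation (18.8%), against 9.94% of all genes. On the higher side there were 2 (2.47%) and 1 (1.25%), against 8.55% of all genes. The chromatin enzymes, which write, erase and read histone marks, had a median of -0.01 over 62 genes, 30 positive and 32 negative. Of these 3 lists none had a member called by edgeR, and at an unadjusted p under 0.05 there were 1 higher and 2 lower ribosomal genes, 1 lower gene of oxidative phosphorylation, and 3 higher and 3 lower chromatin enzymes. DESeq2 called 1 gene of the 3 lists, Rplp0, which was higher.

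Genes that the study follows during browning include abundant matrix genes and thermogenic genes that were barely detected at this day. Of its 20 named genes 16 were tested and 0 called by edgeR or DESeq2, with a median log2 fold change of 0.15, and Fosl2 alone had an unadjusted p under 0.05. Libraries did not overlap for 3 of them, Fosl2, Mmp2 and Ppargc1a, all higher, and for 0 on the lower side. That is 18.8%, close to the 18.5% of all genes that did not overlap on either side (8.55% on the higher side). Fosl2, which encodes the AP-1 factor FRA2, was measured at 204, 201 and 201 CPM in WT and at 228, 239 and 267 CPM in DKO libraries (log2 fold change 0.28 ± 0.09 SE, adjusted p = 0.524). Mmp2, a matrix protease, stood at 698, 687 and 719 CPM in WT and at 803, 1782 and 864 CPM in DKO libraries (log2 fold change 0.71 ± 0.31 SE, adjusted p = 0.532). Ppargc1a, a coactivator of mitochondrial genes, was highest in DKO replicate 2 as well, at 1.23 to 1.35 CPM in WT and 1.36, 4.35 and 1.53 CPM in DKO libraries. Pparg, the master regulator of fat cell formation, overlapped, at 3.53 to 4.82 CPM in WT and 3.61 to 5.73 CPM in DKO libraries. Ucp1, the uncoupling protein of brown fat, reached at most 0.143 CPM and Cidea was at 0 in all 6 libraries.

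Fat cell genes of general function had a median of 0.33 over 17 tested members, or 0.17 without DKO replicate 2. EdgeR called 0 and DESeq2 called 1, and 3 were higher at an unadjusted p under 0.05 (4.43% of all genes). Without DKO replicate 1, edgeR called 3 as higher (1.07% of all genes). Lpl, the lipase that releases fatty acids from lipoproteins, was the member with the smallest p, at 934, 1098 and 913 CPM in WT and at 1506, 2109 and 1923 CPM in DKO libraries (log2 fold change 0.91 ± 0.16 SE, adjusted p = 0.203). Fabp4, a fatty acid carrier, overlapped, at 11.1 to 12.6 CPM in WT and at 8.67, 52.9 and 30.3 CPM in DKO libraries. Adipoq, the fat cell hormone adiponectin, reached at most 0.249 CPM.

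The cultures carried the markers of fibroblasts. Col3a1, a fibrillar collagen, reached at least 3693 CPM in every library, Vim, an intermediate filament protein of mesenchymal cells, stood at 1175 to 1396 CPM, and 19 of 20 listed fibroblast markers passed the filter. Myod1, the regulator of skeletal muscle fate, was at 0 in all 6 libraries, and 1 of 12 erythroid and 1 of 10 liver markers passed the filter. More passed for other lineages, with 11 of 28 skeletal muscle, 16 of 22 neural and glial and 8 of 14 endothelial markers. For cartilage and bone 9 of 20 passed, and for epithelium 7 of 16, so markers of other lineages were not absent. Tcf21, a factor of some mesenchymal lineages, was the fibroblast marker that did not pass. Among the fibroblast markers Pdgfra, a growth factor receptor of mesenchymal progenitors, stood at 536, 641 and 550 CPM in WT and at 754, 869 and 1049 CPM in DKO libraries (log2 fold change 0.63 ± 0.15 SE, adjusted p = 0.392). The list as a whole did not follow it, with a median of -0.095, 7 members positive and 12 negative. Libraries did not overlap for 3 on the higher side (15.8%, against 8.55% of all genes). On the lower side there were 2, Fn1 and Postn (10.5%, against 9.94%).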

How the data were processed

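Total RNA of MEFs was prepared with a stranded total RNA kit per the study's methods, while the labels state polyA RNA, and read as 50 bp pairs. The authors used Cutadapt 1.18, STAR 2.7.0f (mm10) and RSEM 1.3.0, and deposited expected counts per gene without normalization. RSEM's strand setting is not given in the sources used here. Between 5.93% and 7.07% of a library's values were not whole, and all were rounded. With R 4.3.3, edgeR 4.0.16 was run with filterByExpr, TMM and a robust quasi-likelihood fit on the 6 libraries, with genotype as the only term. CPM are TMM-scaled. A call needs a Benjamini-Hochberg adjusted p under 0.05 and a 1.5-fold change. Interactions used 12 libraries. Alternatives were DESeq2 1.42.0, limma-voom 3.58.1, other filters, scaling and thresholds, 1 fit over all MEF days, a replicate block and leaving out each library. Counts within 5 lists without each library were added after seeing the data. The tests were checked on simulated data. Of 15149 unchanged genes there, edgeR called 5, limma-voom 6 and DESeq2 52. Of the genes changed 2-fold, edgeR recovered 52%, limma-voom 44% and DESeq2 69%. The larger counts of DESeq2 thus came with more false calls in that simulation. It drew genes independently and with the same spread in both genotypes, whereas the DKO libraries here differed more among themselves than the WT libraries. Its rates of false calls and of recovery need not hold for these data.

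The members and the 47 gene lists were chosen with earlier results of these data known. Named are the HMGN family, genes the study names, sex-linked genes, called genes, called members of each list (the most abundant members where none is called) and called neighbours of Hmgn1 and Hmgn2. Of the listed genes, 1 is not reported here by itself. Other named genes were chosen after their values were seen. Where every library of a genotype had at most 3 counts, the fold is a bound computed against 3 counts per library. Identity between transcripts was taken from blastn on GENCODE M21.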

Additional observations from a re-analysis of the deposited data

Results flagged for a closer look

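In a test of genotype by cell type across the 12 day 0 libraries of MEFs and preadipocytes, 14 of 16581 genes passed an adjusted p-value of 0.05, with 1233 at an unadjusted p under 0.05. The values here are the preadipocyte log2 fold change (DKO over WT) minus that of MEFs. They were 3.57 for Apoe, 3.21 for H2-T22, 3.00 for H2-T23, 1.303 for Pkdcc, 0.99 for Plau, 1.35 for Gm8730 and 1.07 for Gm9625. They were -6.22 for Gm43079, -4.47 for H2-T10, -2.55 for Flt1, -2.24 for Gm1821, -1.85 for D3Ertd751e, -1.49 for Vegfc and -0.68 for Psmd8. Of these, Gm8730, Gm9625, D3Ertd751e and Gm43079 were called in day 0 MEFs.

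Apoe, which encodes the lipoprotein ligand apolipoprotein E, stood at 1575, 1821 and 1603 CPM in WT MEFs and at 828, 1258 and 1273 CPM in DKO MEFs. In preadipocytes it stood at 24.9 to 39.9 CPM in WT and at 156 to 379 CPM in DKO libraries, so the signs were opposite. H2-T22 and H2-T10, nonclassical MHC class I genes, differed between the genotypes in preadipocytes (9.95 to 12.3 against 80.2 to 111 CPM, and 42.2 to 50.4 against 1.17 to 2.04 CPM) and overlapped in MEFs. Reads of the H2-T genes and of the pseudogenes Gm8730, Gm9625 and Gm1821 are uncertain because close copies exist. Cell type and sex cannot be told apart in this test.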

How the results depend on the processing

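The count of 16 called genes was 166 with DESeq2, 134 with 1 fit over all MEF days and 44 with no filter on low counts, and between 5 and 529 when a library was left out (529 without DKO replicate 1, 14 without DKO replicate 2, 7 without DKO replicate 3 and 5 without each WT library). The 5 genes called without any 1 WT library were Gm8730, Gm9625, Gm3375, Hmgn2 and Gm45104. Same-numbered WT and DKO libraries deviated with correlations of -0.26, -0.05 and 0.23, and differently numbered ones with -0.383 to 0.365. These values show no pairing by number, but with 3 libraries per group they cannot exclude it. With the replicate block, 3 genes were called at day 0, 0 by day and 5 by cell type. The interaction with day had 0 calls, 8 with DESeq2 and 0 to 228 leaving out a library (228 without DKO replicate 1). The interaction with cell type had 14, 52 with DESeq2 and 8 to 169 leaving out a library (169 without DKO replicate 1, 8 without WT replicate 2 or 3). The log2 fold change of Hmgn5 was -0.011 to 0.341 leaving out a library, turning to -0.011 without DKO replicate 2. The cause was not tested.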
